A study of Homo sapiens with 6 samples.

Results

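Coenzyme Q synthesis genes are the genes whose products build ubiquinone, and 10 were taken by symbol: PDSS1, PDSS2, COQ2, COQ3, COQ4, COQ5, COQ6, COQ7, COQ8A and COQ9. Every probe annotated to one of these current or earlier symbols was used. That gave 11 probes for 9 of the 10 genes, among 9841 named genes and 15542 probes tested, out of 47231 probes on the arrays. No probe for COQ4 is listed in the annotation used here, so COQ4 was not analysed here. That annotation covers only probes detected on 1 or more arrays, and it names 13981 of those 17925. The other 3944 carry no gene name, so whether COQ4 was detected is not known. The study compared PC3 cells, an established human prostate cancer line, carrying a doxycycline-inducible construct for PGC1A, a transcriptional coactivator long linked to mitochondrial biogenesis. The group without doxycycline and the group given doxycycline for 2 passages had 3 Illumina bead arrays each, and both groups carry the construct. The labels give neither the clonality of the line nor the origin of the replicates. The spread behind every p-value is that of these arrays and may be technical. Treated cells lacking the construct are not part of this comparison, so the effects of doxycycline and of induced PGC1A cannot be told apart.

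Coenzyme Q is a lipid of the inner mitochondrial membrane that takes electrons from the dehydrogenases of the respiratory chain and hands them to complex III. PDSS1 and PDSS2 together make its long isoprenoid tail, COQ2 joins the tail to a benzoquinone precursor, and COQ6, COQ3, COQ5 and COQ7 add hydroxyl and methyl groups to the ring. COQ9 binds the lipid intermediate and works with COQ7, COQ8A is an atypical kinase-like ATPase needed for synthesis, and most of these proteins sit together in a complex on the matrix side of the membrane.

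None of the 9 measured genes passed the threshold, a Benjamini-Hochberg adjusted p under 0.05 over all tested probes in limma, against 0.630% of all tested genes. COQ9 and COQ3 came nearest, with levels 1.40-fold (95% interval 1.22 to 1.60) and 1.33-fold (1.16 to 1.52) those without doxycycline. COQ2, COQ7 and COQ8A differed least, with log2 changes of 0.01, 0.05 and -0.03. At an unadjusted p under 0.05 there were 4 of the 9 genes, COQ3, COQ5, COQ6 and COQ9, against 14.1% of all tested genes. With the replicate number as a block the count was also 0 of 9, against 1.02% of all tested genes. In RNA from whole cultures, a change per cell and a change in the mix of cells cannot be told apart.

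The arrays detected 15029 to 16012 probes each at a detection p under 0.01. In a principal component analysis of the tested probes the first component, with 34.1% of the variance, placed all 3 arrays with doxycycline at 7.35 or above and all 3 without it at -8.84 or below. Doxycycline replicate 2 lay farthest out, at 20.6. The second component, with 31.9%, ran from replicate 1 at the top through replicate 3 to replicate 2 in both groups. The PPARGC1A probe lay close to background, with log2 levels of 5.32 ± 0.34 and 5.36 ± 0.33 (SD, n = 3 each) in the untreated and the treated group, and whether it reads the construct was not analysed here. ESRRA, the nuclear receptor ERR-alpha that partners PGC1A, rose from 8.02 ± 0.05 to 8.52 ± 0.08 (SD, n = 3 each; log2 change 0.50, adjusted p = 0.0495, and 0.0502 over genes in place of probes). Of 6 markers listed for the line, the mesenchymal VIM and 5 epithelial ones, 5 were tested and none passed the threshold. VIM, KRT8, KRT19, EPCAM and CDH1 were detected on all 6 arrays, while the listed KRT18 probe was detected on 1. By the brightest probe, log2 changes of the 5 tested ran from -0.34 for CDH1 (adjusted p = 0.645) to 0.14 for KRT8 (adjusted p = 0.631). Of 7 fibroblast markers 3 were tested and none passed, with log2 changes of 0.33 for LUM (adjusted p = 0.189) and -0.18 for COL1A1 (adjusted p = 0.644). COL1A2 was at -0.03 on its brighter probe (adjusted p = 0.931) and 0.14 on the other (adjusted p = 0.56). The part of these markers in the results was not tested.

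Upstream sequences are shown for a member with a large and a member with a small change. They are the kind of region to which transcription factors are known to bind. The sequences are the 250 bases before the start of COQ9, the gene with the largest change (GRCh38.p14, chr16:57447229-57447478, plus strand), and before that of COQ2, among the least changed (GRCh38.p14, chr4:83284799-83285048, minus strand), both from RefSeq and written 5′ to 3′. Capitals mark CpG dinucleotides.
COQ9: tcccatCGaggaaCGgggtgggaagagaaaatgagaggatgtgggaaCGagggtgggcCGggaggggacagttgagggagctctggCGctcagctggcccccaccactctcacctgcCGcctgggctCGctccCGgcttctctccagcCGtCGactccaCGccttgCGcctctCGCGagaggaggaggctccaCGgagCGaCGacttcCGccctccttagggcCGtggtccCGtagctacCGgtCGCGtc
COQ2: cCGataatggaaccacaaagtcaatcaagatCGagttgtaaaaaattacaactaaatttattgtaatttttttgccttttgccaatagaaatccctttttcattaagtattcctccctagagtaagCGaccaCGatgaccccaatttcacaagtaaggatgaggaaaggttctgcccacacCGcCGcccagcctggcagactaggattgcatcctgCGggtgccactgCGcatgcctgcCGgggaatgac
The COQ9 sequence holds 23 CpG dinucleotides and 67.6% G and C, and the COQ2 sequence holds 9 and 45.6%. Over the 13 promoter windows that RefSeq gives for 8 of the 10 genes (COQ3 and COQ4 had no entry), the CpG count ranged from 9 to 33 with a median of 22, where the median of all 35116 windows was 11. PDSS1, whose probes were at 0.26 and 0.31, had 33, but so did 1 of the 4 windows of COQ7, whose log2 change was 0.05, so the count did not order the genes by their change. Several windows of COQ6 and COQ7 overlap one another. The CpG count was added after the expression values had been seen.

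The promoters were also searched on both strands, over 250 bases before to 50 after each start, for 3 motifs. AAGGTCA, the core of the response element bound by ERR receptors, was in none of the 13 windows and in 3.92% of all windows. The palindrome bound by NRF1 was in none of the 13 and in 5.78% of all. CCGGAAG, a core bound by ETS factors such as GABP, was in none of the 13 and in 10.3% of all. This says only that these letters are not in these windows.

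Among the genes for the isoprenoid tail, PDSS1 has a pair of probes and PDSS2 has 1. The brighter PDSS1 probe (ILMN_2080611) read 9.37, 9.03 and 9.15 on the log2 scale in replicates 1 to 3 without doxycycline and 9.73, 9.27 and 9.32 with it. The groups overlapped, because replicate 1 without doxycycline lay above replicates 2 and 3 with it. Replicate 1 was the highest of its group in both groups. The log2 change was 0.26 (SE 0.147, adjusted p = 0.46, and SE 0.076 and adjusted p = 0.14 with the replicate block). The other PDSS1 probe (ILMN_1703324) read 8.39, 8.12 and 8.27 without and 8.82, 8.43 and 8.47 with doxycycline. Here the groups did not overlap, by a margin of a few hundredths. Its log2 change was 0.31 (SE 0.128, adjusted p = 0.308, and SE 0.0779 and adjusted p = 0.106 with the replicate block). Both probes were higher with doxycycline in each of the 3 pairs of same-numbered arrays, by 0.36, 0.24 and 0.17 on the brighter one. With replicate 1 of the doxycycline group left out, the change was 0.11 on the brighter probe and 0.19 on the other. PDSS2 (ILMN_1662331), the partner subunit, read 8.51, 8.45 and 8.47 without and 8.60, 8.60 and 8.60 with doxycycline. The groups did not overlap, but the log2 change was small at 0.12 (SE 0.0768, adjusted p = 0.494). The within-array gap between PDSS1 and PDSS2 was larger with doxycycline by 0.13 on average, and the groups overlapped (exact permutation test over the 6 arrays without pairing, two-sided p = 0.6). Within the 3 pairs it was larger by 0.27, 0.08 and 0.04.

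COQ2 (ILMN_1756572), the prenyltransferase that joins tail and ring, read 10.89, 10.72 and 10.72 without and 10.95, 10.69 and 10.71 with doxycycline. The replicate number separated these arrays more than doxycycline did. Its log2 change of 0.01 had a 95% interval from -0.23 to 0.25 (adjusted p = 0.978), so a change of up to about 1.19-fold upward lies within the error.

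**Figure D1:**
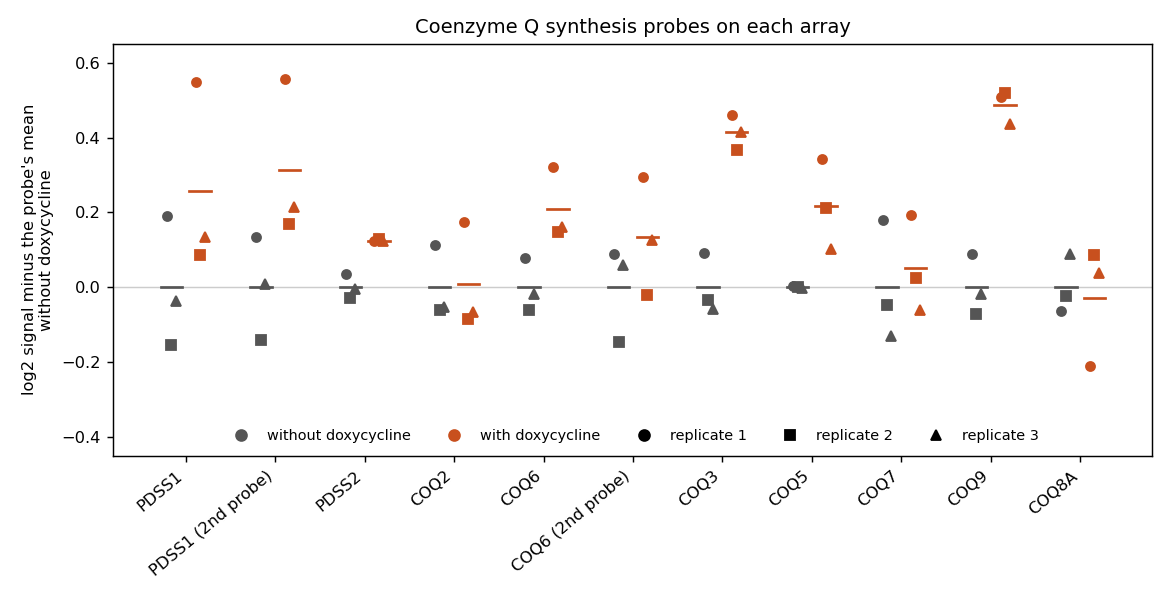
Log2 signal of each coenzyme Q synthesis probe on each array, as the difference from that probe's mean without doxycycline (vertical axis). Grey points are arrays without and orange points arrays with doxycycline, marker shapes are replicate numbers and bars are group means (n = 3); the COQ9 and COQ3 groups stand apart by the widest margins, and replicate 1 is the highest array of both PDSS1 groups.

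The ring is hydroxylated by COQ6 and COQ7 and methylated by COQ3 and COQ5. COQ3 (ILMN_1801378), the methyltransferase that acts on the ring's oxygens, read 10.02, 9.89 and 9.87 without and 10.38, 10.29 and 10.34 with doxycycline. Every array with doxycycline lay above every array without it, and the lowest of the former exceeded the highest of the latter by more than the spread within either group. The means were 9.92 ± 0.08 and 10.34 ± 0.05 (SD, n = 3 each), a log2 change of 0.41 (SE 0.0843, 95% interval 0.22 to 0.61) with an unadjusted p of 0.00115 and an adjusted p of 0.089. COQ3 was higher in all 3 pairs, by 0.37, 0.40 and 0.47. It passed the threshold in 5 of 16 alternative analyses, with adjusted p from 0.0281 to 0.278 over them.

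COQ5 (ILMN_1770936), the methyltransferase that acts on a ring carbon, read 9.83, 9.83 and 9.83 without and 10.17, 10.04 and 9.93 with doxycycline. The arrays without doxycycline were nearly identical and all 3 with it lay above them, at unequal distances. The log2 change was 0.22 (SE 0.09, adjusted p = 0.314). The within-array gap between COQ3 and COQ5 was larger by 0.20 with doxycycline, or by 0.03, 0.19 and 0.37 in the pairs, and the groups did not overlap (exact permutation test, two-sided p = 0.1, the smallest that 3 arrays against 3 allow).

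COQ6, a flavin-dependent monooxygenase, has a pair of probes. The brighter one (ILMN_1783985) read 10.10, 9.96 and 10.01 without and 10.34, 10.17 and 10.18 with doxycycline. These groups did not overlap, with a log2 change of 0.21 (SE 0.0901, adjusted p = 0.329). The dimmer COQ6 probe (ILMN_1664367) read 6.90, 6.66 and 6.87 without and 7.10, 6.79 and 6.93 with doxycycline. Its groups overlapped, with a log2 change of 0.13 (SE 0.112, adjusted p = 0.616), so the COQ6 probes shared a sign and differed in whether the groups were apart. The dimmer one was at 0.05 with replicate 1 of the doxycycline group left out. It was at 0.06 with replicate 2 of the untreated group left out.

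COQ7 (ILMN_1689070), the hydroxylase of the last hydroxylation step, read 7.06, 6.84 and 6.75 without and 7.08, 6.91 and 6.83 with doxycycline. The groups interleaved almost completely, and the log2 change was 0.05 (SE 0.113, 95% interval -0.21 to 0.31, adjusted p = 0.861). COQ7 and the dimmer COQ6 probe were the weakest of the 11 probes, with raw intensities of 144 to 174 and 149 to 174. The lowest intensity that counted as detected was 70.1 to 82.2 on the 6 arrays. All 11 probes were detected on all 6 arrays, so none was set aside, and the highest detection p among them was 0.0013. Probes without detection on any array are outside the annotation used here and could not be counted among the 11.

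COQ9 (ILMN_1756898), the lipid-binding partner of COQ7, read 10.15, 9.98 and 10.04 without and 10.56, 10.57 and 10.49 with doxycycline. The groups were apart by more than the range of either. The means were 10.06 ± 0.08 and 10.54 ± 0.05 (SD, n = 3 each), a log2 change of 0.49 (SE 0.0847, 95% interval 0.29 to 0.68). The unadjusted p was 0.00041, where the largest unadjusted p among called probes was 0.000337, and the adjusted p was 0.0536. COQ9 was higher in all 3 pairs, by 0.42, 0.59 and 0.45, and its change was above that of 98.3% of tested probes. It passed in 7 of 16 alternative analyses, with adjusted p from 0.0136 to 0.214 over them.

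The within-array gap between COQ9 and its partner COQ7 was larger by 0.43 with doxycycline, and by 0.40, 0.52 and 0.38 in the 3 pairs. The groups did not overlap, but the test could not have passed (exact permutation test, two-sided p = 0.1, the smallest possible). COQ8A (ILMN_1731064), the ATPase listed as ADCK3 or CABC1 in older annotation, read 9.59, 9.63 and 9.75 without and 9.45, 9.74 and 9.70 with doxycycline. Its groups overlapped throughout, and it was the 1 gene of the 9 below 0, at -0.03 (SE 0.105, 95% interval -0.27 to 0.21, adjusted p = 0.923). The COQ9 to COQ8A gap was larger by 0.52 and the COQ9 to COQ2 gap by 0.48, both without overlap (exact permutation p = 0.1 each); these pairs were chosen after the values had been seen. No adjustment over the 5 gaps computed could bring a p under 0.1. None of the 5 gaps was listed in the design of the analysis. Each average gap change follows from the log2 changes of both its genes, so it adds no further support to them.

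**Figure D2:**
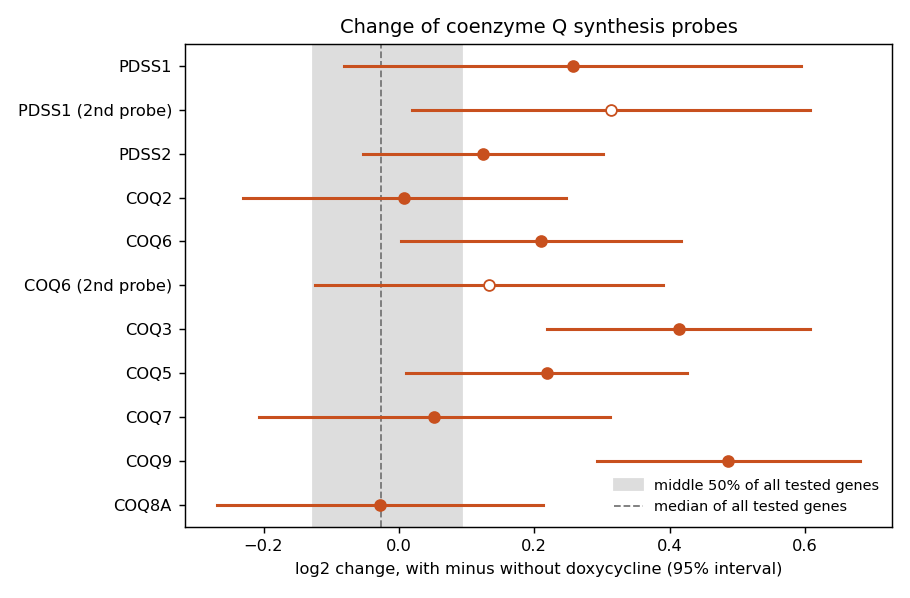
Log2 change with minus without doxycycline of each coenzyme Q synthesis probe (horizontal axis), with its 95% interval from limma; filled points are each gene's brightest probe and open points a further probe. The grey band is the middle 50% of all 9841 tested genes and the dashed line their median; the intervals of COQ9 and COQ3 lie wholly above the band.

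As a group, 8 of the 9 measured genes had a log2 change above 0, where 43.4% of all tested genes did. Their median log2 change was 0.21, with a range from -0.03 to 0.49, and that of all tested genes was -0.03. In 5 of the 9, PDSS2, COQ3, COQ5, COQ6 and COQ9 by their brightest probe, every array with doxycycline lay above every array without it, against 10.2% of all tested genes. None of the 9 had the opposite order, against 11.3%. These counts describe genes chosen as a pathway with earlier results in view and carry no test. The median was 0.12 with replicate 1 of the doxycycline group left out, the array on which PDSS1, COQ2, COQ3, COQ5, COQ6 and COQ7 were highest. It was 0.23 with replicate 3 of the doxycycline group left out.

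COQ9 and COQ3 were close enough to the threshold that the analysis settings decided their calls. Both passed on log2 intensities without background correction (COQ9 adjusted p = 0.0169, COQ3 0.034), with a larger background offset of 50 (0.0182 and 0.0381) and with an intensity trend in the variance (0.0136 and 0.0281). Both also passed with array weights (0.0296 and 0.0384). Neither passed with the replicate block (0.0546 and 0.061), without a detection filter, or with any 1 array left out, where COQ9 was between 0.45 and 0.53 and COQ3 between 0.38 and 0.46. The size of both changes varied by less than their standard errors while the calls changed.

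**Figure D3:**
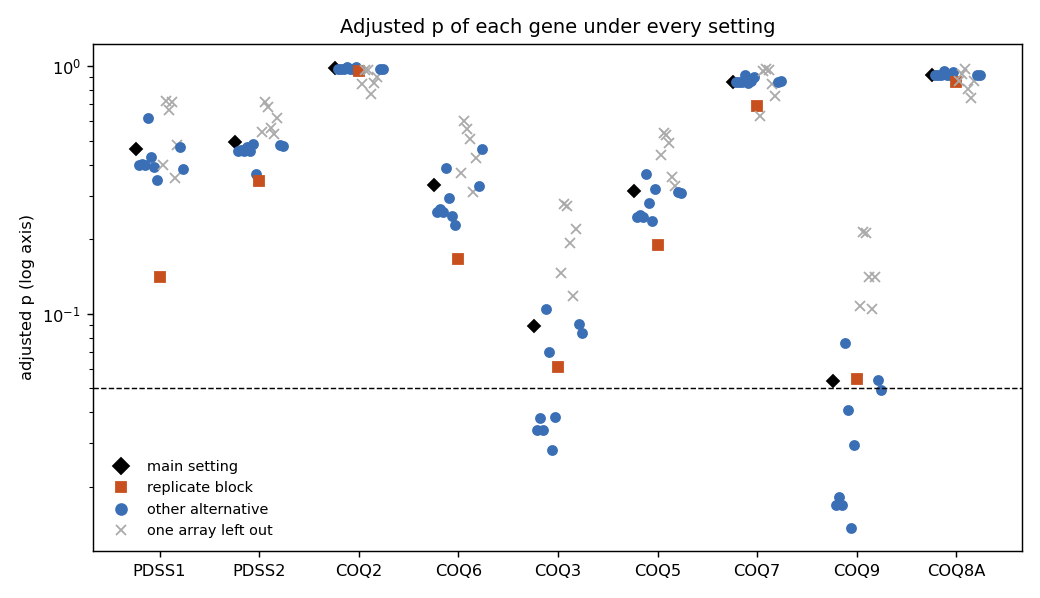
Adjusted p of the 9 genes (vertical log axis), by the brightest probe of each, under the main setting and 16 alternatives; the dashed line is the threshold of 0.05. COQ9 and COQ3 lie on both sides of the line, and the other 7 genes lie above it under every setting run.

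Genes that act beside the synthesis enzymes did not pass the threshold in either direction. Of 11 listed accessory and regulatory genes 7 were tested, with a median log2 change of 0.04. FDX1, a mitochondrial ferredoxin that passes electrons to monooxygenases, was at 0.23 (adjusted p = 0.393). COQ10A, a lipid-binding protein needed for coenzyme Q to work in the respiratory chain, was at -0.22 (adjusted p = 0.278), from 8.65 ± 0.07 to 8.44 ± 0.05 (SD, n = 3 each). Its groups did not overlap, in the opposite order to COQ9 and COQ3, an order that 11.3% of all tested genes had. COQ10B, its paralog, was at 0.03 (adjusted p = 0.919), and COQ8B, the paralog of COQ8A, at 0.13 (adjusted p = 0.756) close to background.

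The mevalonate pathway makes the isoprenoid units of the tail. None of its 8 tested genes of 10 listed passed, and their median log2 change was 0.02. IDI1, the isomerase of isopentenyl diphosphate, was at 0.26 (adjusted p = 0.435) and FDPS, the farnesyl diphosphate synthase, at 0.16 (adjusted p = 0.583). With replicate 2 of the doxycycline group left out, these were 0.09 and 0.09. FDPS was also at 0.09 with replicate 1 of the untreated group left out. Among other users of farnesyl diphosphate, none of 4 tested genes of 5 listed passed, with a median of 0.03. DHDDS, a subunit of the enzyme that makes dolichol precursors, was at 0.23 on its brighter probe (adjusted p = 0.244) and 0.32 on the other (adjusted p = 0.13). NUS1, its partner subunit, was at 0.04 (adjusted p = 0.935).

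Genes that use coenzyme Q included calls. Of 14 genes listed under dehydrogenases that reduce it, 10 were tested. The list holds ETFA and ETFB, subunits of the carrier that feeds ETFDH, and leaves out complex I. DHODH (0.04) and SQOR (0.10) were close to background, detected on 4 and 3 of the 6 arrays. All 10 lay above 0 with a median of 0.18, and 1 passed, against 0.518% of all tested genes called in the upward direction. That gene was ETFDH, which passes electrons from fatty acid oxidation to coenzyme Q, at 9.51 ± 0.06 without and 10.06 ± 0.05 with doxycycline (SD, n = 3 each; log2 change 0.55, SE 0.083, adjusted p = 0.0384). Of 10 listed complex III genes, which oxidise coenzyme Q, 8 were tested, all 8 lay above 0 with a median of 0.28, and 1 rose. UQCRC2, a core subunit, went from 6.66 ± 0.26 to 7.46 ± 0.06 (SD, n = 3 each; log2 change 0.80, SE 0.132, adjusted p = 0.0452). UQCRB, a further subunit, was at 0.91 (adjusted p = 0.0717). It passed with the replicate block (adjusted p = 0.0243, against 0.813% of all tested genes called upward with the block). Its other probes were at 0.14 and 0.41. The probe at 0.41 was detected on all 3 arrays with doxycycline and on 0 without it. That probe therefore entered the test only through the group where it was higher. Without a detection filter neither ETFDH (adjusted p = 0.0558) nor UQCRC2 (0.112) passed. With 1 array left out, ETFDH passed in none of 6 fits and UQCRC2 in 1 of 6, and UQCRC2 also missed the threshold over genes (0.0502).

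**Figure D4:**
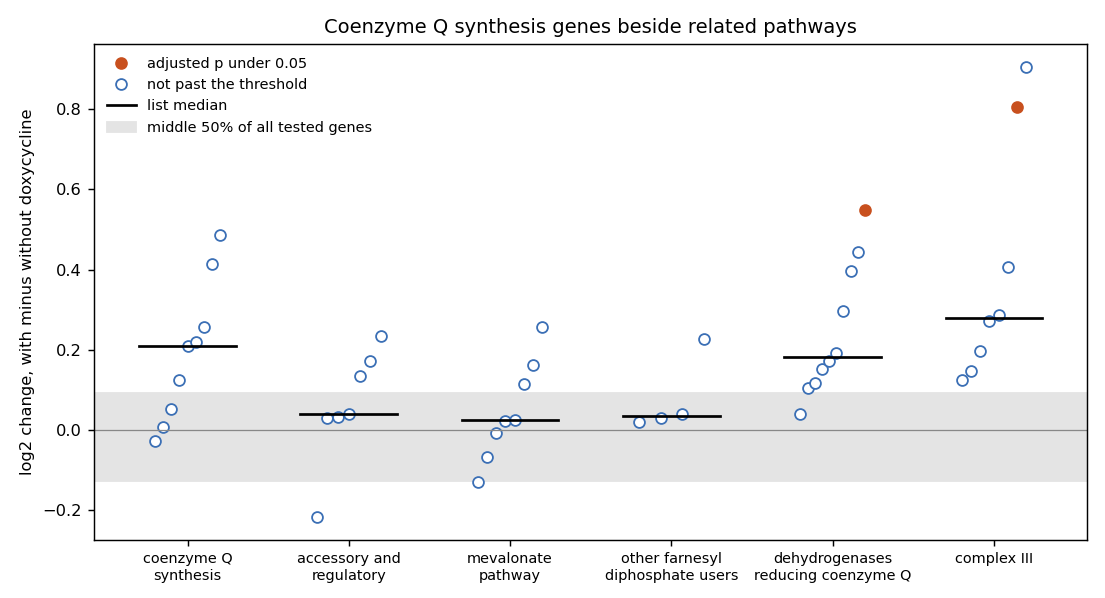
Log2 change with minus without doxycycline of each tested gene (points, by its brightest probe) in 6 gene lists; filled points passed an adjusted p of 0.05 in limma, black bars are list medians and the grey band is the middle 50% of all tested genes. The coenzyme Q synthesis median of 0.21 stands between those of the dehydrogenases (0.18) and complex III (0.28), and the other 3 medians lie between 0.02 and 0.04.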

How the data were processed

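Per the labels' protocols, column-purified total RNA was labelled as biotinylated amplified RNA for Illumina bead arrays. The deposited intensity table holds linear probe intensity values and a deposited detection p-value per probe and array. The authors' deposited log2 table matched the log2 intensities after quantile normalization of the 17925 probes detected on any array. The submitters' processing notes name lumi. Scanner software is not given in the sources used here.

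Intensities were background-corrected with the detection p-values (offset 16), quantile-normalized and taken to log2 (neqc of limma 3.58.1, R 4.3.3). Tested probes had a detection p under 0.01 on 3 or more of the 6 arrays. Groups were compared with lmFit and eBayes, two-sided, with Benjamini-Hochberg adjustment over 15542 probes. Of these, 106 passed, 89 higher and 17 lower, and 167 with the replicate block. A gene was read by its brightest tested probe. The fit was run on simulated data with independent noise on each array. That simulation held no shared deviation of same-numbered arrays, so it is no check of the fit under pairing. Probes were named through the platform annotation, with symbols updated through Entrez numbers for 13970 of 13981.

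Same-numbered arrays deviated together (correlations 0.40, 0.46 and 0.24), so the numbers were taken to pair the arrays, on the data alone. Named genes are all members, the called genes of each related list or else the 2 with the largest change, and PPARGC1A, PPARGC1B and ESRRA. COQ10B, COQ8B and UQCRB were named after their values were seen. PPARGC1B was at 0.20 (adjusted p = 0.576), close to background and detected on 4 of the 6 arrays. Members and lists were chosen with earlier results of these data known. Leukocyte markers (2 of 5 tested) and the endothelial list (1 of 4 tested) had no call, and 1 further marker list is not reported here. The number of arrays limits the precision.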

Additional observations from a re-analysis of the deposited data

How the results depend on the processing

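Of the 16 alternatives, the leave-one-out fits kept the normalized values and the probe set. The deposited table and the fit without background correction gave nearly the same values, so the 16 are not independent checks. COQ3, COQ5, COQ6, COQ9, PDSS1 and PDSS2 kept a log2 change above 0 in each one run. The count of coenzyme Q synthesis genes called, 0 in the main analysis, was 2 without background correction, with a background offset of 50, on the deposited table, with an intensity trend and with array weights. It was 1 with probes detected on all 6 arrays and for the mean of a gene's probes, and 0 in the other 9. The cause was not tested. The count of probes called, 106, was 198 both for the deposited table and without background correction, 185 with the offset of 50, 184 with the trend, 255 with array weights and 167 with the replicate block. It was 6 without a detection filter, 53 genes with 1 probe per gene and 66 genes for the mean of probes, where fewer or more features were tested. Leaving out 1 array at a time gave 1 to 26 probes, 0 coenzyme Q synthesis genes, 0 or 1 related genes and a median log2 change from 0.12 to 0.23. Related genes called, 2 in the main analysis, were 5 without background correction, on the deposited table and with the trend, 4 with the offset of 50 and 6 with array weights. They were 3 with the replicate block, 1 with 1 probe per gene and 0 without a detection filter. The replicate block changed no call among the members, and among the named genes only that of UQCRB.

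Some values near 0 changed sign without coming near the threshold. COQ2 was at -0.0026 with array weights and from -0.076 to 0.065 with 1 array left out, COQ7 from -0.017 to 0.14 and COQ8A from -0.086 to 0.063. NUS1 ranged from -0.072 to 0.21 and PPARGC1A from -0.16 to 0.17 with 1 array left out, and PPARGC1A was at -0.16 with array weights. ESRRA lost its call in all 6 leave-one-out fits (adjusted p from 0.0995 to 0.207) and without a detection filter (0.0692). Among the members, COQ7 and the dimmer COQ6 probe lay closest to background.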
